A study of Mus musculus with 6 samples.

Results

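Regulatory T cell genes were examined in bulk RNA of orthotopic HCA-1 tumors, which grow from a murine HCC line implanted in the liver of male C3H mice aged 6 to 8 weeks. The group held 10 genes chosen by symbol and not by their values, namely Foxp3, Il2ra, Ikzf2, Ccr8, Tnfrsf4, Tnfrsf9, Tnfrsf18, Icos, Il10 and Tgfb1, among the 55536 genes of the count table. All 10 were found. Tumors of 3 untreated control mice (libraries 5, 6 and 7) were compared with tumors of 3 mice (libraries 1, 2 and 5) given GOx-DOX-LGP, a nanogel loaded with glucose oxidase and doxorubicin. The controls received no empty nanogel, so that enzyme, drug and carrier cannot be told apart. The labels place the doses on days 18, 19 and 20, but name day 17, with 3 h of circulation, for the transcriptome analysis, so that the day of harvest is not settled by the labels. The library numbers are those of the labels, which do not say whether the tumors came from separate experiments, and p-values measure the spread between these libraries.

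Regulatory T cells are CD4+ T cells that restrain other immune cells. Foxp3 is the transcription factor that defines the lineage, and Ikzf2 encodes Helios, a zinc finger factor found in many of these cells. They depend on interleukin 2, which they bind through a receptor whose alpha chain is encoded by Il2ra. In tumors they often carry the chemokine receptor CCR8 and costimulatory receptors such as OX40 (Tnfrsf4), GITR (Tnfrsf18), ICOS and the product of Tnfrsf9, and they can act through the cytokines interleukin 10 (Il10) and TGF-beta 1 (Tgfb1). Apart from Foxp3, these genes are also used by other cells. Activated CD8+ T cells and natural killer cells use Tnfrsf9 and Tnfrsf18, and macrophages and other cells make Il10 and Tgfb1.

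Promoter windows of 250 bases before and 50 after a RefSeq start were at hand for 7 of the 10 genes, on build GRCm38.p6 of the C57BL/6J reference and not of the C3H strain. The letters TTCNNNGAA, which dimers of STAT factors downstream of the interleukin 2 receptor can bind, occurred in windows of 3 of the 7 genes, Foxp3, Tnfrsf9 and Tnfrsf18, and in 8.3% of all 32851 windows. The kappaB consensus occurred in those of Il2ra, Tnfrsf9 and Tgfb1 and in 8.46% of all windows. GGAAAA, the core bound by NFAT, was found for 3 of the 7 genes against 23.4% of windows, TGANTCA (AP-1) for Tnfrsf9 alone against 7.81%, and TGTTTAC (forkhead) for 0 of the 7 against 3.65%. Both strands were searched. The 7 genes have 9 windows, because Foxp3 and Tnfrsf9 each have a further start. The shares are per window, so that they are not in the same unit as the counts of genes. The NFAT and STAT letters overlap in the Foxp3 window, as do a pair of kappaB matches in each of the Il2ra and Tnfrsf9 windows. Windows of 4 receptor or lineage genes with STAT or kappaB letters are shown because these signals act in T cells. The first 250 bases of each are printed on the plus strand with all matches in capitals, and a match describes letters only. They lie at chrX:7580233-7580482 (Foxp3, the downstream start), chr2:11642542-11642791 (Il2ra), chr4:150927749-150927998 (Tnfrsf9, the downstream start) and chr4:156026072-156026321 (Tnfrsf18). The window of the upstream Foxp3 start, whose first 250 bases lie at chrX:7579426-7579675, holds 0 matches.
Foxp3: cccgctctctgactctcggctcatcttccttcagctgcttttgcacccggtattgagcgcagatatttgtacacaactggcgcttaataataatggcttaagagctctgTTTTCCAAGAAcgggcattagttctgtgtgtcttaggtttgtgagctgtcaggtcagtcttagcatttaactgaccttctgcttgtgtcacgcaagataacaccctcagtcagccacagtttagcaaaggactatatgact
Il2ra: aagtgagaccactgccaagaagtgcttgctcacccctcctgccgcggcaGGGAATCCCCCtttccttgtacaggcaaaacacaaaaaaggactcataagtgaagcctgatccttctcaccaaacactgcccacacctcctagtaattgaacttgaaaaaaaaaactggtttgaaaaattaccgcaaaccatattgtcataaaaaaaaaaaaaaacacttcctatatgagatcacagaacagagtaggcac
Tnfrsf9: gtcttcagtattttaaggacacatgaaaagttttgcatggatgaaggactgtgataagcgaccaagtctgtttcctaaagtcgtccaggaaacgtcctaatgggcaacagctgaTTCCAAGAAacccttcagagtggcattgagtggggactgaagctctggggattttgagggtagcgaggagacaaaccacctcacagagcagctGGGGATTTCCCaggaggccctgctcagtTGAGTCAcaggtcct
Tnfrsf18: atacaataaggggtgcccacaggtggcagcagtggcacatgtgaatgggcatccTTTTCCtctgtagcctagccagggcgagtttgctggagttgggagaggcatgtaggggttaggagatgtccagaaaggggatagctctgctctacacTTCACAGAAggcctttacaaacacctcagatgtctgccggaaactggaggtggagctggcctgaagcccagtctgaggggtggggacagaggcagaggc

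The libraries held between 15529940 and 18401178 counts. Levels are given in CPM, the counts relative to the TMM-scaled library size, and 3 counts, taken as the floor, correspond to between 0.132 and 0.323 CPM. Controls 6 and 7 stood apart from the other libraries. Across the 15374 genes kept by the filter on low counts, log2 CPM correlated with a Pearson's r of 0.969 between these controls, but of 0.73 and 0.659 between them and control 5, which had an r of 0.966 to 0.975 with the GOx-DOX-LGP tumors. The summed level of 16 genes for proteins secreted by hepatocytes ranged from 829.3 to 237900 CPM without treatment, against 1765 to 4418 CPM after GOx-DOX-LGP. All 16 were lower in the treated group at an unadjusted p under 0.05, as were 14.6% of all genes, although the groups overlapped. In the plot of list means, controls 6 and 7 are high for the hepatocyte genes and low for the other 3 lists. With the mean of the hepatocyte genes as a covariate in edgeR, the log2 fold changes of the 9 regulatory T cell genes kept ranged from 0.23 (Tnfrsf18) to 1.12 (Tnfrsf9), with 0.85 for Foxp3, and their adjusted p from 0.637 to 0.924.

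**Figure D1:**
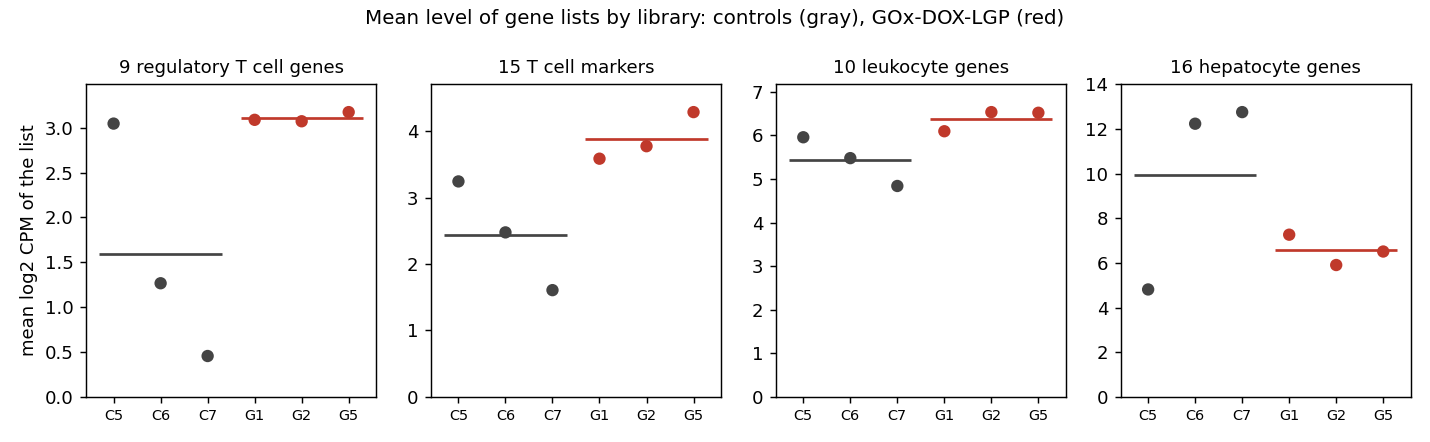
Mean log2 CPM of 4 gene lists (y axis) in each library (x axis), with controls 5, 6 and 7 in gray (C5 to C7), GOx-DOX-LGP tumors 1, 2 and 5 in red (G1, G2, G5) and the group mean as a line. The hepatocyte mean is 12.2 and 12.8 in controls 6 and 7 and 4.81 in control 5, and the mean of the 9 regulatory T cell genes kept is 3.04 in control 5, close to 3.07 to 3.17 in treated tumors, but 1.27 and 0.455 in controls 6 and 7.

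For 9 of the 10 genes, controls 6 and 7 held the lowest levels of all libraries. The group means of all 10 were higher in GOx-DOX-LGP tumors, but control 5 reached the lowest treated tumor for 5 of them. In edgeR (quasi-likelihood test, Benjamini-Hochberg adjustment), 0 of the 9 genes kept had an adjusted p under 0.05, against 0 of 15374 genes in all (0%; 2685 at an unadjusted p under 0.05 and 1680 adjusted with DESeq2), and their adjusted p ran from 0.28 (Tnfrsf4) to 0.73 (Ccr8). At an unadjusted p under 0.05 there was 1 gene, Tnfrsf4, where 2.87% of all genes were higher. Every treated tumor was above every control tumor for 4 genes, Foxp3, Il2ra, Tnfrsf4 and Tnfrsf9, and for 8.87% of all genes. In the fit without a filter, all 10 log2 fold changes were positive, with a median of 0.95, where the median of all 33495 genes was 0.19.

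**Figure D2:**
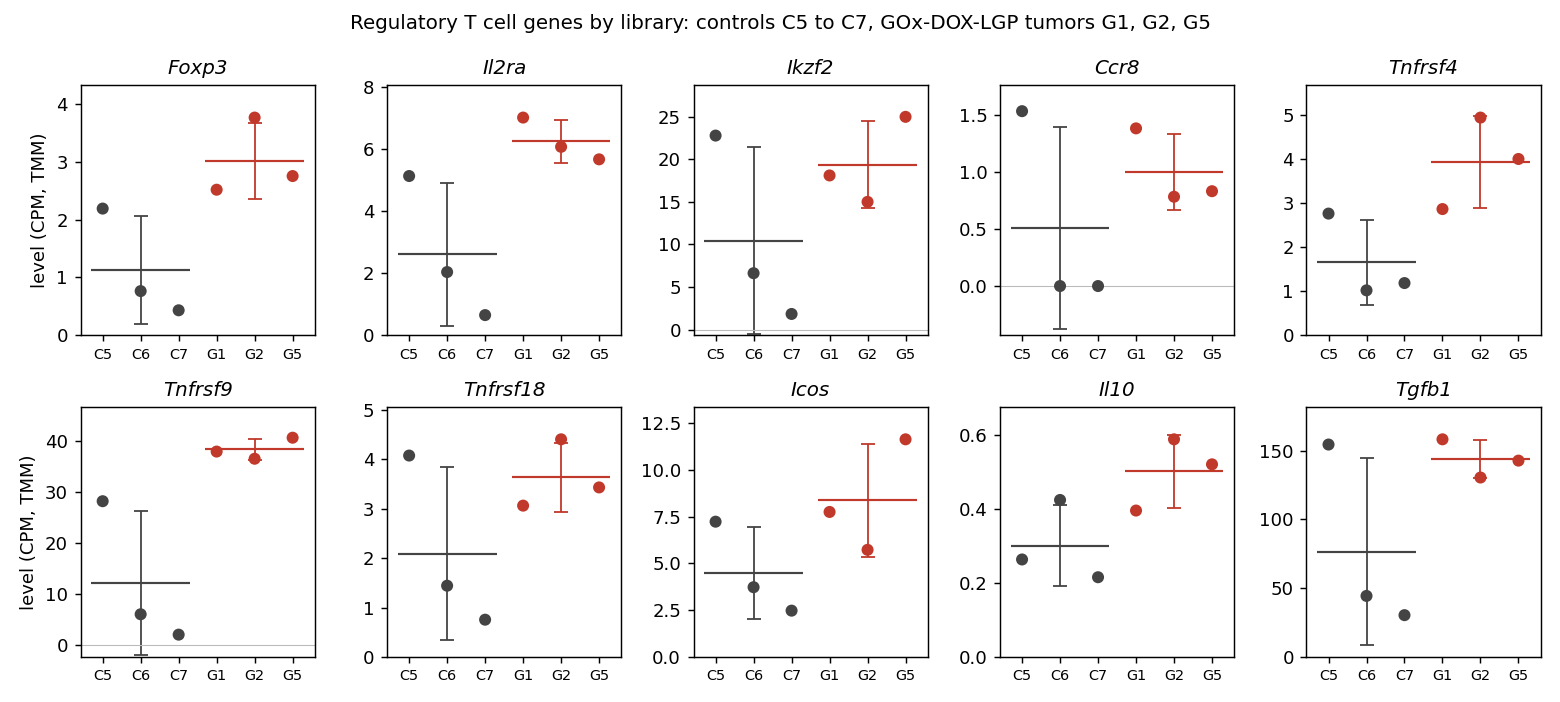
Level of the 10 genes in CPM (y axis, linear, 1 panel per gene) in controls 5, 6 and 7 (C5 to C7, gray) and GOx-DOX-LGP tumors 1, 2 and 5 (G1, G2, G5, red), with the group mean as a line and SD as a bar (n = 3). Control 5 lies near the treated tumors in most panels, while controls 6 and 7 lie below all other libraries for every gene but Il10.

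Foxp3 (ENSMUSG00000039521) lies on chromosome X of GRCm38 from 7573644 to 7595245. It measured 2.19, 0.763 and 0.43 CPM without treatment (controls 5, 6 and 7), against 2.52, 3.77 and 2.76 CPM after GOx-DOX-LGP (libraries 1, 2 and 5). The groups did not overlap, although control 5 came close to treated tumor 1. The log2 fold change was 1.35 (standard error, SE, 0.61; edgeR adjusted p = 0.314), and the exact permutation test gave p = 0.1, the smallest that 3 libraries against 3 allow. The treated mean was 1.38-fold that of control 5 and 5.05-fold the mean of controls 6 and 7. These levels rest on few counts, 4 and 9 in controls 7 and 6 and 50 to 77 elsewhere. Flicr, Ccdc22, Ppp1r3f and Gm36995 overlap exons of Foxp3 and share 23.1% of its 50-base stretches of transcript, so that its counts are uncertain. Of these neighbors, Flicr, a noncoding RNA on the same strand, had 3 to 11 counts per library, while Ccdc22, on the opposite strand, was listed at 0 in all 6 libraries.

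Ikzf2 (ENSMUSG00000025997, chromosome 1, 69531214 to 69687245) measured 22.8, 6.62 and 1.83 CPM without treatment, against 18.1, 14.99 and 24.97 CPM after GOx-DOX-LGP. Control 5 was above treated tumors 1 and 2. The log2 fold change of 0.88 (standard error 0.82) was close to its error (edgeR adjusted p = 0.557). Against control 5 as the only control it was -0.22 (standard error 0.32, edgeR).

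Il2ra (ENSMUSG00000026770, chromosome 2, 11642807 to 11693193) measured 5.13, 2.04 and 0.646 CPM without treatment, against 7.02, 6.08 and 5.67 CPM after GOx-DOX-LGP. The groups did not overlap, with a log2 fold change of 1.23 (SE 0.68; edgeR adjusted p = 0.375). The treated mean was 1.22-fold the level of control 5, and 4.67-fold the mean of the other controls.

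Ccr8 (ENSMUSG00000042262, chromosome 9, 120092114 to 120094906) had 35, 0 and 0 counts in controls 5, 6 and 7 and 28, 16 and 16 counts in GOx-DOX-LGP tumors. Control 5, at 1.53 CPM, was the highest of all libraries, above 1.38, 0.784 and 0.832 CPM in the treated tumors. A count of 0 allows up to 0.254 CPM in control 6 and 0.323 CPM in control 7. Ccr8 had the largest error among the genes kept, with a log2 fold change of 0.75 (SE 1.25; edgeR adjusted p = 0.73).

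The genes for 3 costimulatory TNF receptors lie on chromosome 4, with Tnfrsf4 (156013843 to 156016612) and Tnfrsf18 (156026164 to 156028895) as close neighbors and Tnfrsf9 from 150914562 to 150946102. Tnfrsf9 (ENSMUSG00000028965) had the largest fold change of the genes kept. It measured 28.1, 5.94 and 1.94 CPM without treatment, against 37.9, 36.5 and 40.6 CPM after GOx-DOX-LGP. The treated tumors were close together and above control 5, with a log2 fold change of 1.66 (SE 0.89; edgeR adjusted p = 0.363). The treated mean was 1.36-fold that of control 5 and 9.73-fold the mean of controls 6 and 7.

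Tnfrsf4 (ENSMUSG00000029075), the gene of OX40, measured 2.76, 1.02 and 1.18 CPM without treatment, against 2.87, 4.95 and 4.01 CPM after GOx-DOX-LGP. The groups did not overlap, but control 5 and treated tumor 1 were close. The log2 fold change was 1.22 (SE 0.49; edgeR adjusted p = 0.28 and 0.17 from DESeq2). Tnfrsf18 (ENSMUSG00000041954), the gene of GITR, measured 4.08, 1.44 and 0.753 CPM without treatment, against 3.07, 4.41 and 3.43 CPM after GOx-DOX-LGP. Here control 5 was above 2 of the treated tumors, and the log2 fold change was 0.76 (SE 0.62; edgeR adjusted p = 0.515). Gm16008 overlaps exons of Tnfrsf18 on the opposite strand and shares 18.7% of its stretches of 50 bases, which leaves a part of these counts uncertain.

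Icos (ENSMUSG00000026009, chromosome 1, 60977927 to 61000320), the gene of the inducible T cell costimulator, measured 7.24, 3.73 and 2.48 CPM without treatment, against 7.76, 5.73 and 11.7 CPM after GOx-DOX-LGP. Control 5 was above treated tumor 2. The log2 fold change was 0.89 (SE 0.50; edgeR adjusted p = 0.377).

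Tgfb1 (ENSMUSG00000002603, chromosome 7, 25687002 to 25705077) encodes the main TGF-beta isoform of immune cells. It measured 154.5, 44.4 and 30.4 CPM without treatment, against 158.3, 130.5 and 142.8 CPM after GOx-DOX-LGP, with control 5 inside the treated range. The log2 fold change was 0.91 (SE 0.62; edgeR adjusted p = 0.448), and -0.09 (standard error 0.20, edgeR) against control 5 alone. Il10 (ENSMUSG00000016529, chromosome 1, 131019845 to 131024974) had 6, 5 and 2 counts in controls and 8, 12 and 10 counts in GOx-DOX-LGP tumors, and did not pass the filter on low counts. Its levels of 0.263, 0.424 and 0.215 CPM without treatment, against 0.395, 0.588 and 0.52 CPM after GOx-DOX-LGP, overlapped. In the fit without a filter its log2 fold change was 0.79 (SE 0.65; edgeR adjusted p = 0.606), a difference close to its error.

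Per kilobase of exons, Tgfb1 had the highest level in GOx-DOX-LGP tumors, with 25.9 to 31.4 CPM per kilobase, followed by Tnfrsf9 with 13.4 to 14.9. The ranges of these genes overlapped neither each other nor those of the remaining genes. Tnfrsf4 (2.1 to 3.62 CPM per kilobase), Icos (1.67 to 3.4), Tnfrsf18 (2.01 to 2.89) and Ikzf2 (1.29 to 2.15) came next, each overlapping its neighbor in this order. Il2ra (0.993 to 1.23), Ccr8 (0.667 to 1.18) and Foxp3 (0.551 to 0.824) also overlapped from neighbor to neighbor, below Ikzf2. Il10 was lowest, at 0.302 to 0.449 CPM per kilobase.

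The result for these genes turned on which control libraries were used. Without control 5, 9 of the 10 genes had an adjusted p under 0.05 with edgeR, all but Il10, and 22.2% of all genes were called higher. Log2 fold changes were then 2.33 for Foxp3, 2.21 for Il2ra, 2.20 for Ikzf2, 1.87 for Tnfrsf4, 3.28 for Tnfrsf9, 1.73 for Tnfrsf18, 1.45 for Icos and 1.98 for Tgfb1. Ccr8 is left out of this list because the remaining controls are at 0 counts. With control 5 as the only control, a comparison added after the values had been seen, 0 of the 10 genes had an adjusted p under 0.05 with edgeR (smallest 0.885), 0 had an unadjusted p under 0.05, and 4 had a negative log2 fold change. The largest positive values were 0.93 (standard error 0.85) for Il10, 0.52 (standard error 0.47) for Tnfrsf4, 0.47 (standard error 0.47) for Foxp3 and 0.46 (standard error 0.20) for Tnfrsf9. The lone control is assumed there to vary like the treated libraries. Of all 16849 genes in that fit, 0 (0%) had an adjusted p under 0.05 and 3.18% were higher at an unadjusted p under 0.05, so that a count of 0 says little about these genes. DESeq2, run over all 6 libraries, called 0 of the 10 genes, and 0.57% of all genes were called higher. At an unadjusted p under 0.05 (DESeq2) there were 2 of the 10, where 797 genes in all were higher.

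**Figure D3:**
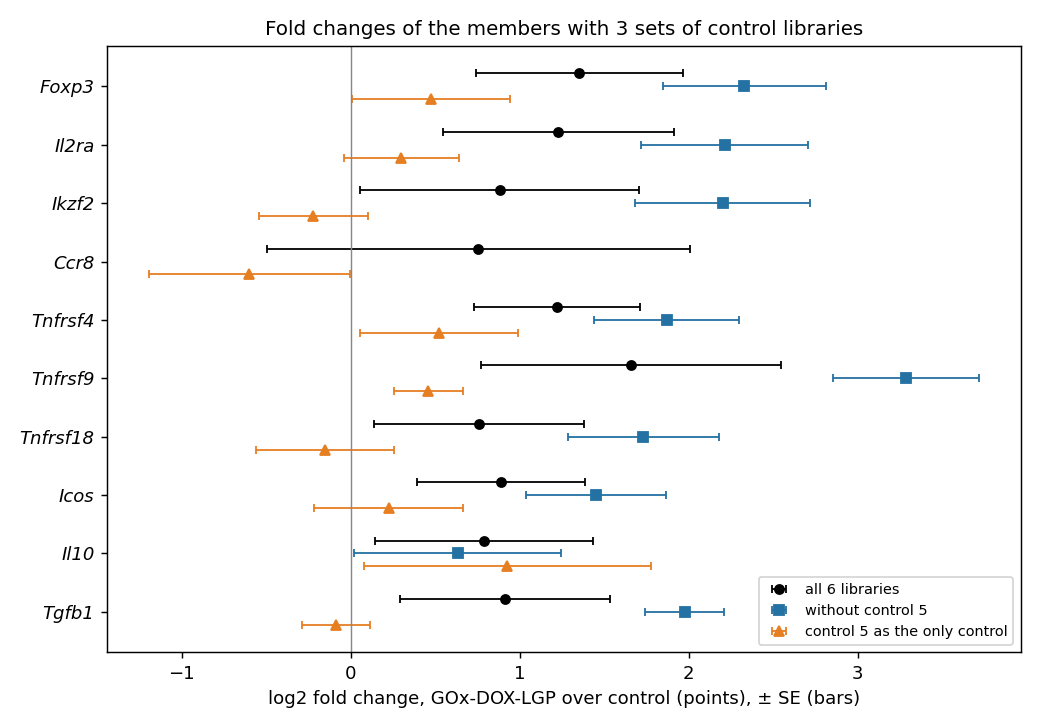
Log2 fold change of GOx-DOX-LGP over control tumors (x axis, points, with the standard error as bars) for the 10 genes (y axis) from edgeR with all 6 libraries (black), without control 5 (blue) and with control 5 as the only control (orange). Black points are positive for all genes, from 0.75 to 1.66, and orange points lie around 0. Il10 in black comes from the fit without a filter, and the blue point of Ccr8, with its controls at 0 counts, is not drawn.

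In bulk RNA, fewer cells of a type and less RNA per cell cannot be told apart. To compare the genes at an equal amount of T cell RNA, the log2 CPM of each was set against the mean log2 CPM of 15 T cell markers in the same library, a list without any of the 10 genes. The markers themselves had a mean log2 CPM of 3.24, 2.48 and 1.61 in controls and 3.58, 3.77 and 4.28 in GOx-DOX-LGP tumors. All 15 had positive log2 fold changes, with a median of 1.44 where that of all genes was 0.02. At an unadjusted p under 0.05 (edgeR) there were 8, where 2.87% of all genes were higher. For 11 markers every treated tumor was above every control, as for 8.87% of all genes. DESeq2 called 6 of the 15 higher, namely Cd3d, Cd3e, Cd3g, Cd247, Lck and Cd27, where 0.57% of all genes were called higher. It called 0 of the 10 regulatory T cell genes, whose median log2 fold change in that fit was 0.93. Cd4 had the smallest value of this list, a log2 fold change of 0.49 (standard error 0.49), beside 1.2 (standard error 0.55) for Cd8a and 1.44 (standard error 0.36) for Cd3e.

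Relative to these markers, Foxp3 measured -2.03, -2.66 and -2.48 on the log2 scale in controls and -2.18, -1.81 and -2.76 in GOx-DOX-LGP tumors. The groups overlapped, with a mean difference of 0.14 (two-sided exact permutation test, p = 0.8). On this scale 0 of the 10 genes was above all controls in every treated tumor, against 0.156% of all genes. The difference was 0.19 for Il2ra (exact permutation p = 0.7), 0.07 for Ikzf2 (exact permutation p = 0.9), -0.15 for Tnfrsf4 (exact permutation p = 0.8), -0.38 for Tnfrsf18 (exact permutation p = 0.4) and -0.17 for Tgfb1 (exact permutation p = 0.6). Ccr8 (0.51, exact permutation p = 0.7) and Il10 (-0.85, exact permutation p = 0.3) rest on few counts, with 0 in 2 controls for Ccr8 and at most 12 in any library for Il10. Tnfrsf9 had the largest difference, 1.00, at 1.58, 0.12 and -0.57 in controls and 1.66, 1.42 and 1.06 in treated tumors, so that control 5 lay above treated tumors 2 and 5 (exact permutation p = 0.3).

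Of the 10 genes, Icos separated the groups on this scale, below the controls, as did 62.7% of all genes, so that this is not particular to Icos. It measured -0.36, -0.53 and -0.23 relative to the T cell markers in controls and -0.61, -1.22 and -0.73 in GOx-DOX-LGP tumors, a difference of -0.48 (exact permutation p = 0.1, the smallest that 3 against 3 allow). Against Cd3e alone the difference of Icos was -0.50 without overlap (exact permutation p = 0.1), where 69.8% of all genes were lower without overlap, but against Cd4 alone it was 0.30 with overlap (exact permutation p = 0.3).

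**Figure D4:**
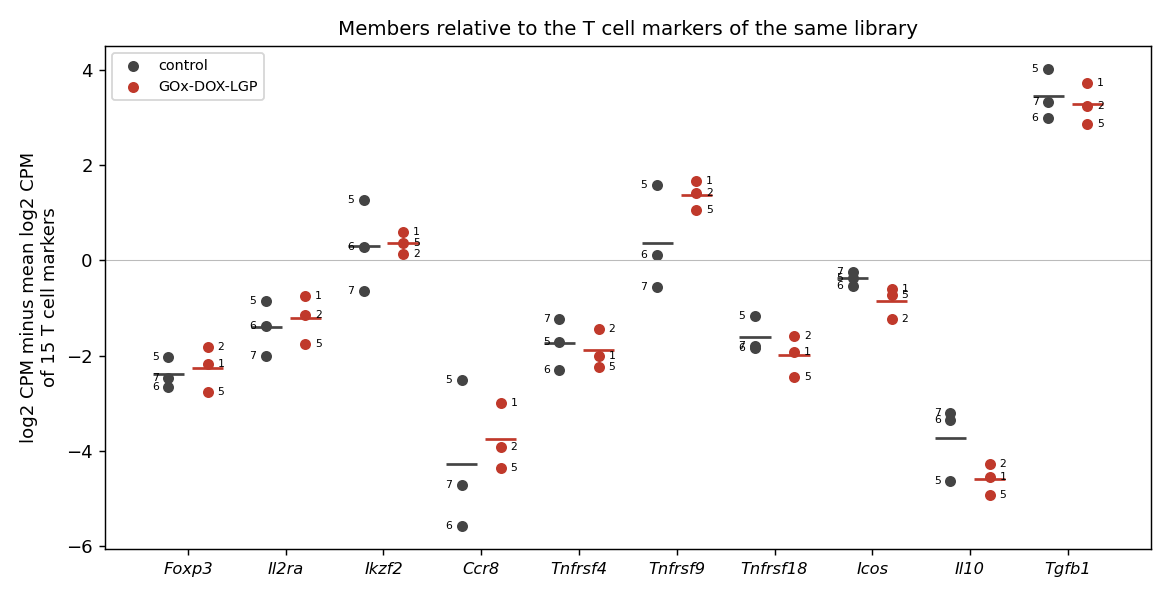
Log2 CPM of each gene minus the mean log2 CPM of 15 T cell markers of the same library (y axis) for the 10 genes (x axis), with controls in gray, GOx-DOX-LGP tumors in red, the library number beside each point and group means as lines. The groups overlap for all genes but Icos, whose 3 treated tumors, at -0.61 to -1.22, lie below the controls.

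Per 100 counts of Cd3e, Foxp3 had 19.5, 9.57 and 7.84 counts in controls 5, 6 and 7 and 14.2, 18.7 and 9.35 counts in GOx-DOX-LGP tumors 1, 2 and 5. Control 5 was the highest of these libraries. Per 100 counts of Cd4 it had 16.3, 9.47 and 11.8 in controls and 20.9, 39.9 and 19.5 in treated tumors. Against Cd4, the groups did not overlap for Foxp3 (log2 difference 0.91), Il2ra (0.97) and Tnfrsf9 (1.78), each with an exact permutation p of 0.1, the smallest possible. Of all genes kept, 3.38% were higher without overlap against Cd4, the marker with the smallest change.

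Relative to the mean of 10 leukocyte genes, which was 5.96, 5.48 and 4.84 in controls and 6.1, 6.53 and 6.52 in GOx-DOX-LGP tumors, 0 of the 10 genes was above all controls in every treated tumor, against 0.605% of all genes. The largest differences were 1.49 for Tnfrsf9 (exact permutation p = 0.3) and 0.99 for Ccr8 (exact permutation p = 0.5). Foxp3 differed by 0.62 (exact permutation p = 0.2) and Icos by 0.00 (exact permutation p = 1). Without control 5, 7 of the 10 genes were above the other controls in every treated tumor on this scale, against 8.53% of all genes. Against Ptprc alone, Foxp3 (0.93), Il2ra (0.99) and Tnfrsf9 (1.80) did not overlap, each with an exact permutation p of 0.1, and 3.26% of all genes were higher without overlap. Ptprc itself had a log2 fold change of 0.52, where the median of the leukocyte genes was 0.93.

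Of 7 ligand genes, Il2 (1 to 9 counts per library) and Ccl1 (0 to 11 counts), the latter a ligand of CCR8, did not pass the filter. All 5 kept had positive log2 fold changes in GOx-DOX-LGP tumors, with a median of 1.81. For 3 of them every treated tumor was above every control, as for 8.87% of all genes. Ccl8, which binds CCR8 in mice, had the largest change, with 746, 343 and 89 counts in controls and 968, 5896 and 2797 counts in treated tumors (log2 fold change 2.75, standard error 0.78). Its unadjusted p from edgeR was 0.0117. Tnfsf4, the OX40 ligand, had a log2 fold change of 2.09 (standard error 0.97) and Tnfsf9, the ligand of the Tnfrsf9 product, of 1.81 (standard error 0.75). Tnfsf18, the GITR ligand, had a value of 1.72 (standard error 0.81), and Icosl of 0.17 (standard error 0.44). None of them had an adjusted p under 0.05 in edgeR, and DESeq2 called Ccl8 alone (adjusted p = 0.00704).

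Of the other receptor chains, all 7 were kept and had positive log2 fold changes, with a median of 0.67. Il2rb (1.45, standard error 0.56) and Il2rg (1.58, standard error 0.56) encode the signaling chains that pair with the product of Il2ra. They and Il10rb (0.66, standard error 0.25) had an unadjusted p under 0.05 in edgeR, where 2.87% of all genes were higher. The TGF-beta receptor genes Tgfbr1 (0.18, standard error 0.40), Tgfbr2 (0.67, standard error 0.51) and Tgfbr3 (0.27, standard error 0.30) had differences of the size of their errors. Among 3 chemokines that attract regulatory T cells, Ccl22 measured 14.13, 3.31 and 0.861 CPM in controls. In GOx-DOX-LGP tumors Ccl22 measured 15.57, 15.33 and 17.01 CPM. The groups did not overlap, although control 5 came close (log2 fold change 1.37, standard error 0.89). Ccl17 had a log2 fold change of 0.64. Ccl20 did not pass the filter, with 18, 4 and 7 counts in controls and 6, 4 and 2 counts in treated tumors. At these low counts it went the other way, at 0.339 to 0.79 CPM in controls and 0.104 to 0.297 CPM in treated tumors.

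Of 22 other genes used by regulatory T cells, 19 were kept, 15 with positive and 4 with negative log2 fold changes and a median of 0.69. Izumo1r, Ctla4, Tigit and Klrg1 had an unadjusted p under 0.05 (edgeR), 4 genes in all and each higher, where 2.87% of all genes were higher. For 6 genes every treated tumor was above every control, as for 8.87% of all genes. Izumo1r, the gene of folate receptor 4 that marks many regulatory T cells, had the largest change, from 14, 2 and 0 counts in controls to 25, 35 and 25 counts in GOx-DOX-LGP tumors (log2 fold change 2.19, standard error 0.82). Ctla4, an inhibitory receptor, had 111, 13 and 7 counts in controls and 149, 158 and 255 in treated tumors (log2 fold change 2.03, standard error 0.75). Tigit followed with 1.40 (standard error 0.57). Negative values were those of Nrp1 (-1.19, standard error 0.61), Lrrc32 (-0.88, standard error 0.45), Ccr6 (-0.76, standard error 0.73) and Nt5e (-0.22, standard error 0.36). Nrp1 and Lrrc32 are also used by endothelial cells, whose part in these values was not tested. Of 7 endothelial markers, 7 had negative log2 fold changes, and DESeq2 called 4. At an unadjusted p under 0.05 (edgeR) there were 5, where 14.6% of all genes were lower. The mean log2 CPM of these markers was 5.565 and 5.697 in controls 6 and 7 and 4.095 in control 5. In GOx-DOX-LGP tumors this mean was 3.511 to 3.9.

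Among 9 genes of interleukin 2 signaling and its STAT5 targets, all kept, 7 had positive log2 fold changes, with a median of 0.59. Socs1 (1.67, standard error 0.95) and Jak3 (1.02, standard error 0.51) had the largest positive values. Socs2 was below all controls in every GOx-DOX-LGP tumor (-1.44, standard error 0.44). It was the only gene of this list with an unadjusted p under 0.05 (edgeR), where 14.6% of all genes were lower. Control 5, at 28.1 CPM, came close to treated tumor 1, at 27.7 CPM, while controls 6 and 7 measured 78.6 and 82.8 CPM. All 8 TGF-beta target genes had positive values, with a median of 0.64, among them Ccn2 (1.38, standard error 0.39) and Pmepa1 (1.27, standard error 0.62). Ccn2 and Tgfbi had an unadjusted p under 0.05 in edgeR, where 2.87% of all genes were higher, and DESeq2 called Ccn2 (adjusted p = 0.036). Of 12 genes for other TGF-beta isoforms and for storage and activation of the cytokine, 9 were positive and 3 negative, with a median of 0.40. Ltbp2 (1.264, standard error 0.91), Ltbp1 (0.99) and Itgb6 (0.97) had the largest values. Furin, the convertase that cleaves the precursor, had -0.81 (standard error 0.31). It was the only gene of this list with an unadjusted p under 0.05 in edgeR, where 14.6% of all genes were lower. Furin measured 131, 185.8 and 265.5 CPM in controls 5, 6 and 7, against 121.2, 102.7 and 107.4 CPM in treated tumors 1, 2 and 5.

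Markers of other cells that use these genes had no adjusted p under 0.05 in edgeR, while DESeq2 called Cd68 (macrophages) and Eomes (natural killer cells) higher and Rora lower. Their part in the results was not tested. Of 10 macrophage markers, 9 had positive log2 fold changes (median 0.96), and their summed level was 603.8 to 967.4 CPM without treatment, against 925.7 to 2141 CPM after GOx-DOX-LGP. All 6 natural killer cell markers kept of 8 were positive (median 1.08), with sums of 11.1 to 29.4 CPM and 34.4 to 60 CPM, and Klra8 at 0 in all libraries. Dendritic cell markers had a median of 0.08 over 8 genes. B cell markers had a median of -0.39 over the 4 kept of 7, with sums of 8.86 to 14.8 CPM without treatment, against 8.996 to 10.6 CPM after GOx-DOX-LGP. Of genes of platelets, which store TGF-beta 1, 3 of 7 were kept (median 0.42), and Gp1bb was at 0 in all libraries. Fibroblast and stellate cell markers had a median of 0.13 over 9 genes. Genes of group 2 innate lymphoid cells, which can carry Il2ra and Icos, had a median of -0.31 over the 6 kept of 8, with 3 positive and 3 negative. Rora and Il17rb were lower at an unadjusted p under 0.05 (edgeR), as were 14.6% of all genes. For both, control 5 lay within the treated range, at 10.7 CPM for Rora against 9.16 to 15.8 CPM. Of the 3 positive genes, Gata3 (1.04, standard error 0.56) was above all controls in every treated tumor. Il13 had 0 or 1 count per library and Il5 had 0 to 5.

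Over the 6 libraries, the 5 genes with the profile most like the mean of the 9 genes kept were Arhgdia, Slc39a6, Crtap, Hk2 and Wdr70, with a Pearson's r of 0.999 for each. This likeness is given as a description, since any gene low in controls 6 and 7 and even elsewhere scores high, and 21.1% of all genes kept had an r over 0.9. The r of the single genes with this mean, of which each is a part, was between 0.902 (Tnfrsf4) and 0.995 (Tnfrsf9). Hk2, a hexokinase, was likewise lowest in controls 6 and 7, with 110.3, 12.9 and 4.74 CPM without treatment, against 101.5, 101.5 and 105.3 CPM after GOx-DOX-LGP.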

How the data were processed

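The authors deposited raw counts per Ensembl gene for 6 tumor libraries, and signal values, which equal these counts over 1 size factor per library (0.5321 to 1.322). The methods name TopHat and HTSeq, while the processing notes of the labels name Trimmomatic 0.38, HISAT2 2.1.0 and featureCounts 2.0.0. The sources used here give neither genome build, annotation release nor use of strand in counting. All 55536 gene identifiers are in GENCODE M21 (GRCm38), which gave positions and exon lengths.

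Raw counts were filtered with filterByExpr, scaled by TMM and tested over all libraries without covariates with the quasi-likelihood test of edgeR 4.0.16 in R 4.3.3 (threshold 0.05, Benjamini-Hochberg). Standard errors were derived from the F statistic. Log2 CPM used a prior count of 2, and exact permutation tests were two-sided, with 0.1 as the smallest p. Alternatives were DESeq2 1.42.0, limma 3.58.1 voom with sample quality weights, other scalings and filters, a hepatocyte covariate (16 genes) and leaving out each library. Named genes were the 10 genes, the 3 largest changes of fixed lists, ligands and receptors by role, and the 5 most alike genes. A gene of the TGF-beta target list is not reported here. Of a list, further genes were named after their values had been seen. Genes and lists were chosen with earlier results of these data known. Floors of 3 counts cover counting error only. Figures were drawn with matplotlib 3.10.9.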

Additional observations from a re-analysis of the deposited data

How the results depend on the processing

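Over all genes, the count with an adjusted p under 0.05 was 0 in edgeR, 1680 with DESeq2, 9254 with limma voom and sample quality weights, 5812 when scaled to the T cell markers (chosen after seeing the data), and between 0 and 7745 when leaving out each library, with 7745 without control 5. Of the 10 genes, 0 were called, but 9 with limma voom and sample quality weights, where 4496 of 15374 genes were called higher. The number called was 0 to 9 when leaving out each library, with 9 without control 5, where 22.2% of all genes were higher. The number of the 10 genes above all controls in every treated tumor was 4, against 8.87% of all genes. It was 4 to 9 when leaving out each library. Relative to the T cell markers it was 0 (0.156% of all genes), 3 against Cd4 alone (3.38%), and 0 to 2 when leaving out each library. Relative to the leukocyte genes it was 0 (0.605% of all genes), 3 against Ptprc alone (3.26%), and 0 to 7 when leaving out each library. It was 1 without treated tumor 5 and 7 without control 5 (8.53%). For the other comparisons without a library, the share of all genes without overlap was not computed. The cause of these shifts was not tested.

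Signs changed as follows. Scaled to the T cell markers, log2 fold changes were -0.13 for Ikzf2, -0.0507 for Ccr8, -0.0745 for Tnfrsf4, -0.35 for Tnfrsf18, -0.43 for Icos and -0.19 for Tgfb1. With control 5 alone they were -0.22 for Ikzf2, -0.60 for Ccr8, -0.15 for Tnfrsf18 and -0.0881 for Tgfb1. Relative to Cd4 alone, the differences were 0.63 for Tnfrsf4, 0.39 for Tnfrsf18, 0.30 for Icos and 0.61 for Tgfb1. When leaving out each library, the difference from the T cell markers ran from -0.0826 to 0.39 for Foxp3, -0.10 to 0.47 for Il2ra, -0.40 to 0.56 for Ikzf2, -0.14 to 1.39 for Ccr8, -0.42 to 0.11 for Tnfrsf4 and -0.39 to 0.12 for Tgfb1. From the leukocyte genes it ran from -0.0477 to 1.17 for Ikzf2, -0.13 to 0.45 for Tnfrsf18 and -0.19 to 0.32 for Icos. Log2 fold changes of the 10 genes stayed positive under DESeq2, library totals, upper quartile, DESeq2 size factors, both other filters, the hepatocyte covariate and each left-out library, wherever a gene was kept. Counts were lowest for Il10, Ccr8 and Foxp3, with 12, 35 and 77 at most. No paired analysis was possible because the groups share only the number 5.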

Other observations

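Ratios to Cd8a, which marks cytotoxic T cells, were computed after the values above had been seen. Foxp3 had 8.65, 7.56 and 7.69 counts per 100 counts of Cd8a in controls 5, 6 and 7, against 8.76, 12.8 and 7.53 after GOx-DOX-LGP (libraries 1, 2 and 5), a mean log2 difference of 0.11 with overlap (two-sided exact permutation test, p = 0.8). Cd4 had 53.1, 79.8 and 65.4 counts per 100 counts of Cd8a without treatment, against 41.9, 32.1 and 38.6 after GOx-DOX-LGP. Every treated tumor was below every control, with a mean log2 difference of -0.80 (exact permutation p = 0.1, the smallest that 3 against 3 allow). The share of all genes lower without overlap was not computed against Cd8a. Against Cd3e it was 69.8%, so that the separation is not shown to be particular to Cd4.

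Among 10 other lymphocyte TNF receptor superfamily genes, 9 were kept, with 7 positive and 2 negative log2 fold changes and a median of 0.74. Cd27 had the largest value (1.51, standard error 0.43), followed by Cd40 (1.38, standard error 0.83) and Tnfrsf8 (1.24, standard error 1.07), while Ltbr had -1.11 (standard error 0.42). None had an adjusted p under 0.05 in edgeR, and DESeq2 called 1 of them, Cd27, which is also on the T cell marker list.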
